A study of Homo sapiens with 6 samples.

Results

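The core genes of the Notch pathway were followed in 2 lung epithelial cell lines exposed to transforming growth factor-beta 1 (TGF-β1). They are the receptors NOTCH1, NOTCH2 and NOTCH3, the ligands JAG1 and JAG2, and the target genes HES1, HES4 and HEY1. These 8 genes were taken by symbol for their place in the pathway, and each has 1 row among the 25737 entries of the count tables. The study asked how TGF-β1 changes gene expression in respiratory epithelial cells as a model of pulmonary fibrosis. A549 is a human lung carcinoma line and BEAS-2B is a human bronchial epithelial line, both established lines labelled as wild type (WT). Each line was grown in RPMI1640 with 10% serum and was either left untreated or kept for 48 h with TGF-β1 at 1 or 5 ng/mL in medium with 1% serum. The sources do not state the serum level of the controls. RNA was measured by sequencing of 3′ mRNA ends (QuantSeq), in 1 library for each of the 6 conditions.

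Notch receptors are membrane proteins that are activated by ligands of the Jagged and Delta families on neighbouring cells. Ligand binding lets ADAM proteases and γ-secretase cut the receptor, and the freed intracellular domain enters the nucleus, where it joins the DNA-binding protein RBPJ and a Mastermind (MAML) coactivator. Genes of the HES and HEY families are the best known targets, and they encode transcriptional repressors that in the airway take part in the choice between secretory and ciliated fates.

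With 1 library per condition there was no test between conditions and no p-value. Each ratio is given with its exact 95% counting interval, which leaves out the spread between cultures, and the reads carry no molecular identifiers, so they may not be independent. A gene was called higher or lower when its normalized count plus 1 differed at least 2-fold and its ND value, the log2 of the normalized count plus 1, reached 7 in at least 1 of the 2 libraries. That ND value is a normalized count of 127. In bulk RNA, fewer cells of a type and less RNA per cell cannot be told apart.

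Library totals ran from 4120624 to 7841350 counts, so that 3 counts corresponded to 0.383 to 0.728 CPM. Of 4 TGF-β1 response genes, TGFBI and SKIL were called higher at 5 ng/mL in both lines. TGFBI, which encodes a matrix protein induced by TGF-β, was 7.64-fold (7.38 to 7.91) higher in A549 and 6.08-fold (5.89 to 6.29) higher in BEAS-2B cells. SMAD7 was called higher in BEAS-2B cells alone and stayed under the ND minimum in A549 cells, at 27.8 and 120 normalized counts. SMAD6 was not called in either line. Keratin genes KRT7, KRT8 and KRT18 had counts in all 6 libraries. EPCAM was at 0 in the 3 BEAS-2B libraries and CDH1, which encodes E-cadherin, had 0 to 2 counts there, whereas in A549 cells CDH1 went from 640 counts to 30 and 8. The surfactant genes SFTPA1 and SFTPC and the club cell genes SCGB1A1 and SCGB3A2 were at 0 in every library. Of the other alveolar type II markers, SFTPB had 0 to 2 counts and NKX2-1 had 0 to 8. ABCA3 had 72, 255 and 194 counts in A549 and 23, 5 and 3 in BEAS-2B cells. The T cell and endothelial markers CD3E, CDH5 and VWF were also at 0 throughout. Other immune and endothelial markers were not: PTPRC and PECAM1 had 0 to 4 counts, and CD68 had 4 to 73 counts.

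The proximal promoters of HES1 and HES4 are shown as those of the core genes that hold the RBPJ core motif. They were picked with the values of both genes known, and any link of the motif to these values was not tested. RefSeq promoter sequences (GRCh38.p14) were found for 7 of the 8 genes, all but HEY1. The windows hold the 120 bases before the start site, at chr3:194136028-194136147 on the plus strand for HES1 and at chr1:1000098-1000217 on the minus strand for HES4. Capitals mark the RBPJ core TGGGAA.
HES1: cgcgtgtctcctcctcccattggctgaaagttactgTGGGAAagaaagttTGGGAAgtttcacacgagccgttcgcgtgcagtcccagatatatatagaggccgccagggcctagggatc
HES4: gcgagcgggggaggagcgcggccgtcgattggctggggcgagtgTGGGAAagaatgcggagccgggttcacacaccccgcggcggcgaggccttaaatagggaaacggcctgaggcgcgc

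In the 250 bases before the start site, searched on both strands, HES1 held 2 matches to TGGGAA, at -84 to -79 and at -70 to -65. HES4 held 1, at -76 to -71. The 5 receptor and ligand promoters held none, which says only that these letters are not in this window. Among 35116 RefSeq promoters of the same length, 20.8% held at least 1 match and 2.9% held 2 or more. The first match of HES1 and the match of HES4 also fitted the longer form GTGGGAA, found in 5.43% of promoters and overlapping the core. HES1 also held 3 matches to the N box CACNAG, the sequence through which HES1 protein is known to repress its own gene. NOTCH3 held 1 N box, and 32% of promoters held at least 1. A match is a description of the sequence and no measure of binding. Variant forms of the RBPJ motif, other than GTGGGAA, were not searched. The counts were made on hg19, so these GRCh38 positions say nothing of where reads were counted.

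**Figure D1:**
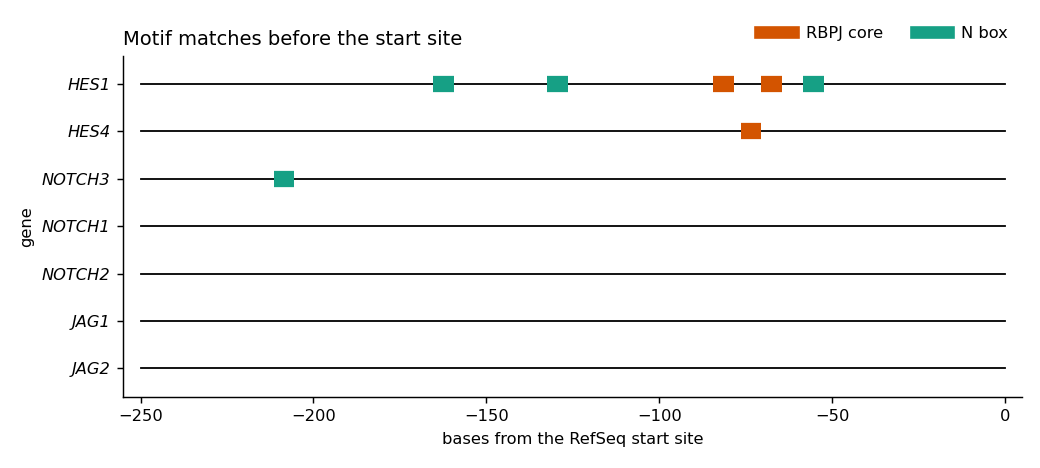
Positions of RBPJ core and N box matches in the 250 bases before the RefSeq start site (horizontal axis, bases from the start) of the 7 genes with a promoter sequence. RBPJ core matches lie in HES1 (2) and HES4 (1), and N boxes in HES1 (3) and NOTCH3 (1).

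The receptors had the lowest summed counts of the 3 roles in A549 cells and were led by NOTCH2 in BEAS-2B cells. Counts of 3′ ends do not scale with transcript length, so levels are compared between genes on this scale. No receptor was called at either dose in either line. NOTCH2 had normalized counts, listed here and below in the order 0, 1 and 5 ng/mL, of 90.4, 98.2 and 87.1 in A549 cells and of 427, 318 and 346 in BEAS-2B cells. Every BEAS-2B library was thus above every A549 library. In the controls NOTCH2 was 4.73-fold (3.7 to 6.11) higher in BEAS-2B cells, and at 5 ng/mL 3.98-fold (3.14 to 5.07) higher. Within BEAS-2B cells its ratio to the control was 0.745 (0.637 to 0.871) at 1 ng/mL and 0.811 (0.692 to 0.949) at 5 ng/mL, below 1 beyond counting error but within 2-fold. In A549 cells both intervals spanned 1. Reads of NOTCH2 and of its partial copy NOTCH2NL, which had 63 to 187 counts per library, could have been split by the counting, so the NOTCH2 values are uncertain.

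NOTCH1, a receptor with roles in many epithelia, stayed under the ND minimum in all 6 libraries. Its normalized counts were 27.8, 44.7 and 31.8 in A549 and 89.2, 49.5 and 46.6 in BEAS-2B cells. The BEAS-2B control was the highest of the 6, 1.8-fold (1.23 to 2.67) above the next library, while the other 4 steps in the order of levels were within counting error. The ratio to the control at 5 ng/mL was 0.522 (0.344 to 0.78) in BEAS-2B and 1.14 (0.66 to 2.01) in A549 cells.

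NOTCH3, a receptor best known from vascular smooth muscle, had ratios on opposite sides of 1 in the 2 lines, at low counts. It had 71, 72 and 36 counts in A549 cells, or 82.3, 49.5 and 32.7 normalized counts, and 5, 35 and 34 counts in BEAS-2B cells, or 5.58, 39.4 and 42.8 normalized counts. With 5 ng/mL it was 2.52-fold (1.66 to 3.87) lower in A549 and 7.68-fold (2.99 to 25.2) higher in BEAS-2B cells, both under the ND minimum. The controls stood at the 2 ends of the order, with a 14.8-fold (6.03 to 46.8) difference, and the 4 treated libraries lay between them. The lines did not differ beyond counting error at 5 ng/mL, with a BEAS-2B to A549 ratio of 1.31 (0.796 to 2.16). NOTCH3 took 41% of the counts of the 3 receptors in A549 controls and 21.6% (15.6 to 28.6) at 5 ng/mL, against 1.07% and 9.83% (6.9 to 13.5) in BEAS-2B cells.

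**Figure D2:**
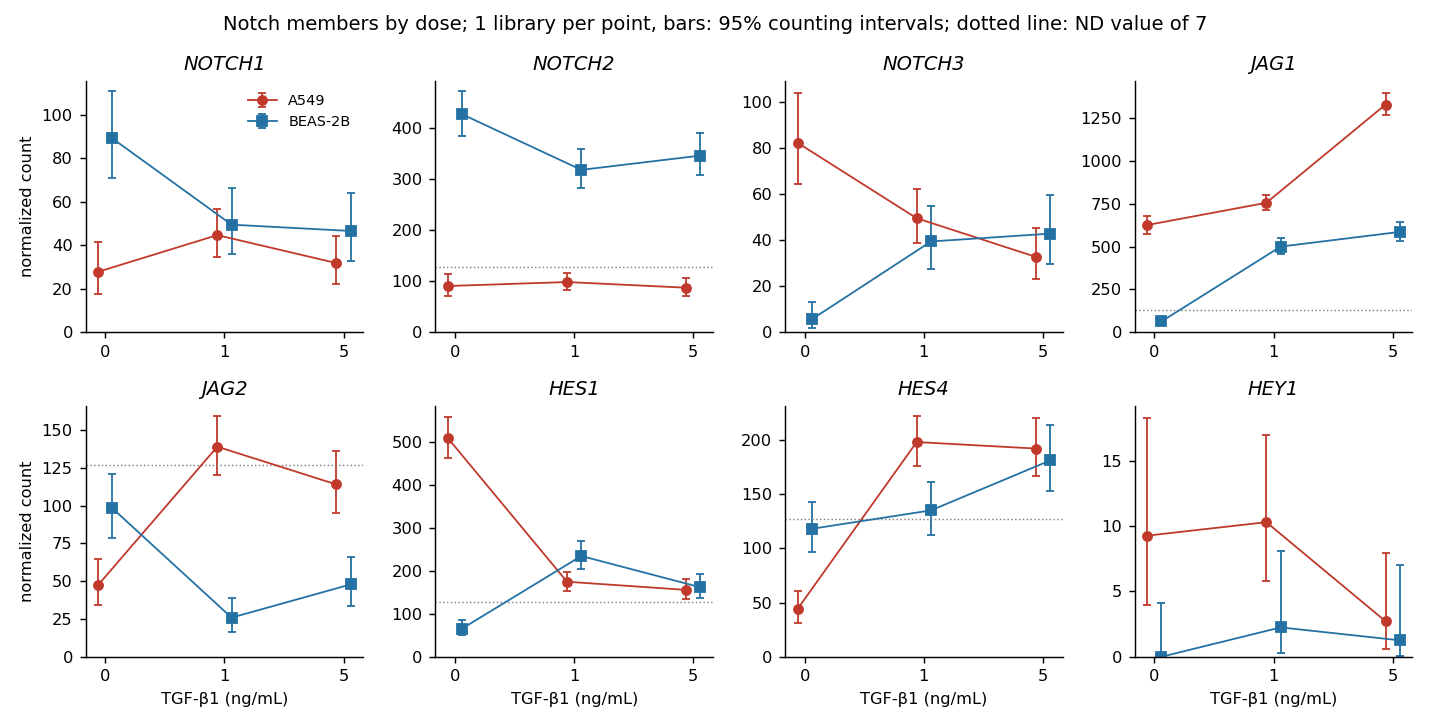
Normalized counts (vertical axis, linear from 0) of the 8 genes by TGF-β1 dose (0, 1 and 5 ng/mL) in A549 (circles) and BEAS-2B (squares) cells, 1 library per point with 95% counting intervals; the dotted line at 127 is the ND minimum. Between 0 and 5 ng/mL HES1 changed from 510 to 156 in the A549 line and from 65.8 to 162 in the BEAS-2B line, and HEY1 stayed near 0.

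JAG1, a Jagged ligand known to respond to TGF-β in other epithelia, was higher with TGF-β1 in both lines and was the most abundant of the 8 genes in every treated library. Its normalized counts were 626, 756 and 1330 in A549 cells. For BEAS-2B cells they were 62.5, 500 and 586. JAG1 was thus lowest in the BEAS-2B control and highest in A549 cells at 5 ng/mL, and the BEAS-2B value at 5 ng/mL was within counting error of the A549 control. In BEAS-2B cells it was 8-fold (6.05 to 10.8) higher at 1 ng/mL and 9.38-fold (7.1 to 12.6) higher at 5 ng/mL, called at both doses. In A549 cells the ratio was 1.21 (1.09 to 1.34) at 1 ng/mL, not called, and 2.13 (1.93 to 2.36) at 5 ng/mL, called. With total counts as the scaling the latter log2 FC moved from 1.09 to 0.88 and the call was lost. From 1 to 5 ng/mL JAG1 was 1.76-fold (1.63 to 1.91) higher in A549 and 1.17-fold (1.03 to 1.34) higher in BEAS-2B cells.

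JAG2, the second Jagged ligand, had normalized counts of 47.5, 139 and 114 in A549 cells and of 98.2, 25.9 and 47.9 in BEAS-2B cells. Both treated A549 libraries lay above their control and both treated BEAS-2B libraries below theirs. In A549 cells it was 2.92-fold (2.08 to 4.19) higher at 1 ng/mL, where it was called, and 2.41-fold (1.68 to 3.51) higher at 5 ng/mL, where it stayed under the ND minimum. The call at 1 ng/mL was lost in libraries thinned to the smallest total. In BEAS-2B cells it was 3.79-fold (2.37 to 6.29) lower at 1 ng/mL and 2.05-fold (1.39 to 3.08) lower at 5 ng/mL, under the ND minimum at both. JAG1 made up 38.9% (30.9 to 47.4) of the JAG1 and JAG2 counts in BEAS-2B controls and 92.4% (89.8 to 94.6) at 5 ng/mL. In A549 cells that share was 92.9% (90.5 to 94.9) in the control, 84.5% (82.4 to 86.4) at 1 ng/mL and 92.1% (90.7 to 93.4) at 5 ng/mL.

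HES1, the repressor that is the standard readout of Notch activity, was called in both lines at both doses and in opposite directions. Its normalized counts were 510, 175 and 156 in A549 cells. For BEAS-2B cells they were 65.8, 235 and 162. The A549 control was the highest library and the BEAS-2B control the lowest, with all 4 treated libraries between them. HES1 was 2.91-fold (2.49 to 3.41) lower at 1 ng/mL and 3.27-fold (2.73 to 3.92) lower at 5 ng/mL in A549 cells. It was 3.57-fold (2.67 to 4.86) higher at 1 ng/mL and 2.47-fold (1.8 to 3.42) higher at 5 ng/mL in BEAS-2B cells. With log2(CPM + 1) as the ND value HES1 was under the minimum in every comparison and all of its calls were lost. The controls differed 7.75-fold (5.89 to 10.3), whereas at 5 ng/mL the BEAS-2B to A549 ratio was 1.04 (0.822 to 1.32). Between 1 and 5 ng/mL the ratio was 0.691 (0.55 to 0.865) in BEAS-2B cells and 0.891 (0.73 to 1.08) in A549 cells.

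HES4, a HES family repressor present in humans and absent from mice, was called higher in A549 cells and was not called in BEAS-2B cells. Its normalized counts were 44, 198 and 192 in A549 cells and 118, 135 and 181 in BEAS-2B cells. The A549 control was the lowest library by 2.69-fold (1.84 to 4), and both treated A549 libraries were the highest, within counting error of BEAS-2B cells at 5 ng/mL. In A549 cells HES4 was 4.49-fold (3.2 to 6.48) higher at 1 ng/mL and 4.37-fold (3.08 to 6.34) higher at 5 ng/mL, called at both doses. In BEAS-2B cells the ratios of 1.14 (0.872 to 1.5) and 1.53 (1.19 to 1.99) were not called. HES1 made up 92.1% (89.3 to 94.3) of the HES1 and HES4 counts in A549 controls and 44.8% (39.7 to 49.9) at 5 ng/mL. In BEAS-2B cells its share was 35.8% (28.5 to 43.6) in the control, 63.5% (58.1 to 68.7) at 1 ng/mL and 47.3% (41.2 to 53.4) at 5 ng/mL. HES1 and HES4 thus went opposite ways in A549 cells, while in BEAS-2B cells HES1 alone of the 2 was called.

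HEY1, a repressor of the related HEY family, was near the floor of 3 counts. It had 8, 15 and 3 counts in A549 cells and 0, 2 and 1 in BEAS-2B cells. The A549 ratio at 5 ng/mL was 0.294 (0.0502 to 1.22), and no difference in BEAS-2B cells was detectable at this depth.

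**Figure D3:**
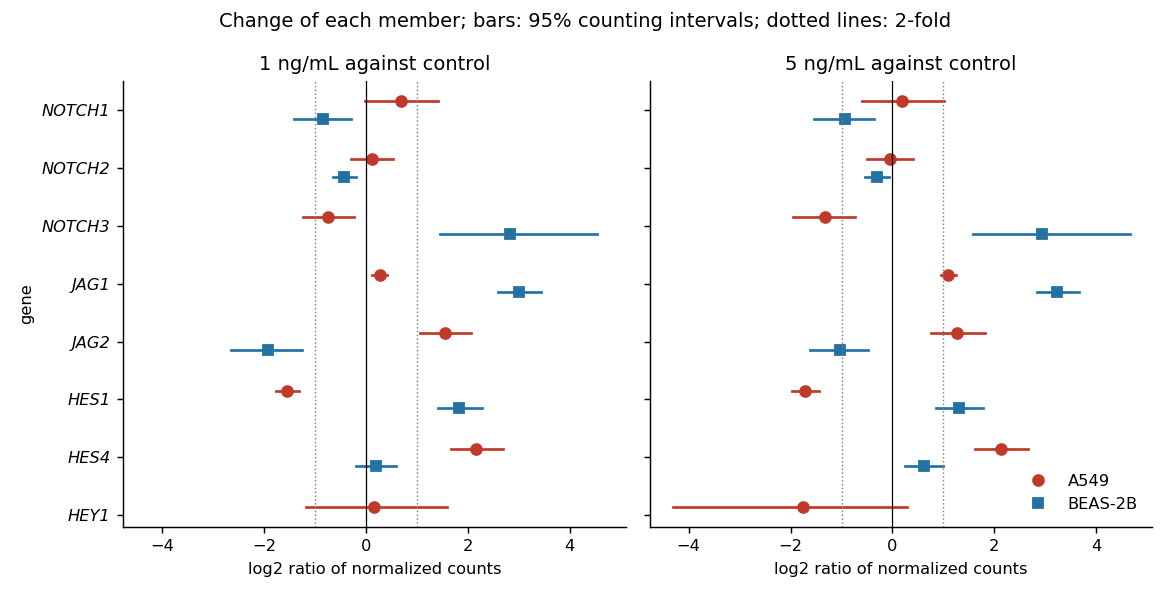
Log2 ratio of normalized counts to the control of the same line (horizontal axis) for the 8 genes at 1 and 5 ng/mL in A549 (circles) and BEAS-2B (squares) cells, with 95% counting intervals; dotted lines mark 2-fold and HEY1 is left out for BEAS-2B cells, where its control count was 0. NOTCH3, JAG2 and HES1 have intervals on opposite sides of 0 in the 2 lines at both doses.

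The calls among the 8 genes rested on the few of them above the ND minimum. Both doses share the control library of their line, so their calls are not independent. In A549 cells 4 of the 8 genes reached the minimum at 1 ng/mL, of which JAG2 and HES4 were called higher and HES1 lower, beside 10.9% higher and 12.6% lower of all genes that reached it. With 5 ng/mL 3 reached it, of which JAG1 and HES4 were called higher and HES1 lower, beside 16.1% and 17.1%. In BEAS-2B cells 4 reached it at each dose, and JAG1 and HES1 were called higher and 0 lower. The shares of all genes there were 5.66% higher and 9.13% lower at 1 ng/mL and 7.33% higher and 11.6% lower at 5 ng/mL. From 1 to 5 ng/mL none of the 8 was called in either line, beside 1.61% higher and 1.79% lower of all genes in A549 and 0.492% and 0.412% in BEAS-2B cells.

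The median log2 FC over the 8 genes at 5 ng/mL was 0.07 in A549 cells, beside 0.11 over all genes tested. In BEAS-2B cells it was 0.89, or 0.31 with HEY1 set to 0, beside 0.03. The medians over the 8 include genes under the ND minimum, whereas all genes tested reached it. They thus rest on unlike filters and are not a like comparison. The choice of scaling bore on how all called genes split into higher and lower. Of the genes called at 5 ng/mL, 48.4% were higher in A549 and 38.7% in BEAS-2B cells, and with total counts as the scaling 33.7% and 27%, with medians over all genes of -0.14 and -0.12.

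Before treatment 3 of these genes were called between the lines, with NOTCH2 higher and JAG1 and HES1 lower in BEAS-2B cells. The other 5 were under the ND minimum in both controls, with counting intervals of their ratios that left out 1. JAG1 was 10-fold (7.6 to 13.4) lower there. Of all genes, 18.9% were called higher and 18.1% lower in the BEAS-2B control. The calls between the lines that were left among the 8 at 5 ng/mL were NOTCH2, higher in BEAS-2B cells, and JAG1, 2.28-fold (2.05 to 2.53) lower, beside 12.1% higher and 14.8% lower of all genes. Closer levels at 5 ng/mL were common among all genes: of 2710 genes called between the controls, 81.4% were closer at 5 ng/mL and 49.2% were within 2-fold. Those genes were selected for their difference between the same control libraries, so these shares are a description.

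Only a gene called in both lines can have opposite calls. In all, 5832 genes reached the ND minimum in both lines at 5 ng/mL, and 13 of them, or 0.223%, were called in opposite directions. Most of the 5832 were not called in both lines, and the 13 are better read beside the 613 that were. At 1 ng/mL the number was 20 of 5747, or 0.348%, with 351 genes called in both lines. JAG1, HES1 and HES4 reached the minimum in both lines at both doses, and HES1 was the 1 of these 3 with opposite calls. With HES1, the genes lower in A549 and higher in BEAS-2B cells at 5 ng/mL were BDKRB2, EDARADD, GDF15, IRF2BP2 and SLC6A6, of which BDKRB2, GDF15 and SLC6A6 were in this set at 1 ng/mL too.

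The difference between the lines was then taken as the BEAS-2B ratio divided by the A549 ratio, with an exact conditional interval over the 4 counts. At 5 ng/mL it was 8.05 (5.58 to 11.7) for HES1, 4.4 (3.27 to 6.02) for JAG1 and 19 (6.62 to 67.5) for NOTCH3. These 3 genes were thus higher relative to control in BEAS-2B than in A549 cells, beyond counting error. It was 0.204 (0.117 to 0.351) for JAG2, 0.352 (0.223 to 0.548) for HES4 and 0.461 (0.227 to 0.92) for NOTCH1, the other direction. For NOTCH2 it was 0.842 (0.592 to 1.19), which spans 1.

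**Figure D4:**
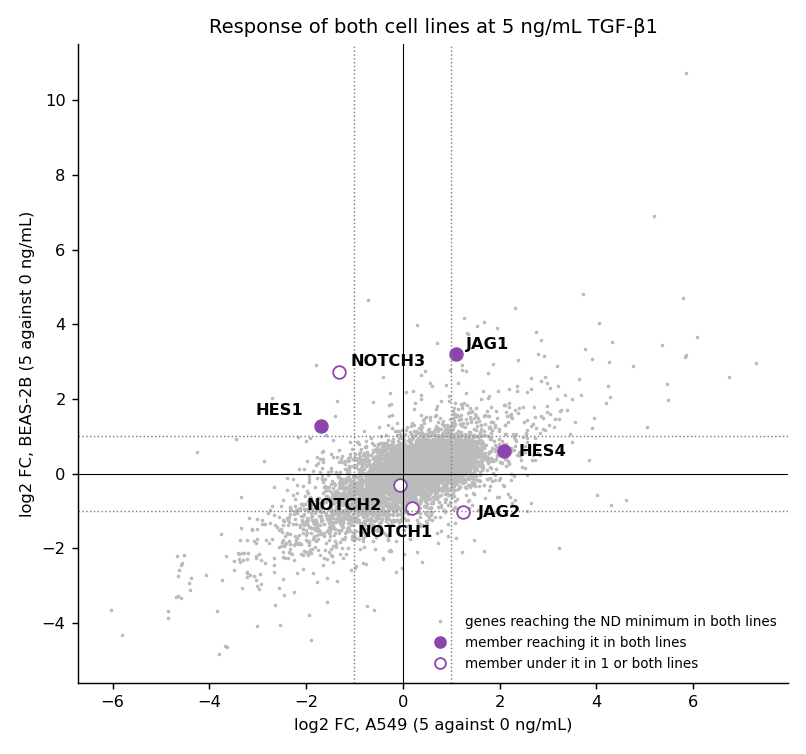
Log2 FC at 5 ng/mL against control in A549 (horizontal axis) and BEAS-2B cells (vertical axis) for the 5832 genes that reached the ND minimum in both lines (grey) and for 7 of the 8 Notch genes (filled, minimum reached in both lines; open, not); dotted lines mark 2-fold. HES1 lies in the upper left, at -1.70 and 1.29, and JAG1 in the upper right, at 1.09 and 3.21.

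The direction of HES1 was next set beside the other genes of its pathway. Of 50 further genes in 6 groups, 31 reached the ND minimum in A549 cells at 5 ng/mL, of which 6 were called higher and 3 lower, beside 16.1% and 17.1% of all genes. In BEAS-2B cells 29 reached it, of which 3 were called higher and 3 lower, beside 7.33% and 11.6%. The counts of the groups that follow are read beside the same shares, and each rests on few genes. The median log2 FC over the 50, those under the minimum included, was 0.18 in A549 and -0.02 in BEAS-2B cells. None of the 50 was called in opposite directions at 5 ng/mL. DTX2, an E3 ubiquitin ligase of the Deltex family, was the 1 with opposite calls at 1 ng/mL and was singled out after its values were seen. It had normalized counts of 195, 562 and 328 in A549 and of 542, 181 and 293 in BEAS-2B cells.

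Among the 11 further receptors, ligands and targets, only DLL3, a divergent Delta family ligand, reached the minimum, in A549 cells alone, and none was called at 5 ng/mL. DLL3 had normalized counts of 231, 212 and 206 in A549 and of 98.2, 33.8 and 44.1 in BEAS-2B cells. The activating ligands DLL1 and DLL4 had 0 to 5 counts in every library and HES5 had 0 to 3. JAG1 and JAG2 thus made up nearly all measured counts of activating ligands. The remaining target genes were under the minimum, so their log2 FCs are of low counts. At 5 ng/mL these were, in A549 and BEAS-2B cells, 1.38 and 2.72 for HEYL, -2.24 and 3.30 for HES2, and -1.12 and -0.31 for NRARP. They were 1.17 and 0.00 for HEY2, 0.87 and -0.90 for HES7, and 0.31 and -0.35 for HES6. HEYL had 3 counts in the BEAS-2B control.

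Of the 9 genes for receptor cleavage, 9 reached the minimum in A549 cells at 5 ng/mL, with 2 called higher and 1 lower, and 7 in BEAS-2B cells, with 1 higher and 1 lower. NCSTN, which encodes the γ-secretase subunit nicastrin, had 179, 14 and 3 counts in A549 cells and 129, 5 and 5 in BEAS-2B cells. Treated libraries of both lines were thus near the floor, 76.2-fold (25.7 to 373) lower at 5 ng/mL in A549 and 22.8-fold (9.54 to 71.6) lower in BEAS-2B cells. FURIN, the convertase that matures the receptors, was 3.26-fold (2.87 to 3.71) higher in A549 and 2.06-fold (1.76 to 2.43) higher in BEAS-2B cells, where its log2 FC of 1.04 ran down to 0.91 over the alternative settings and the call was then lost. PSENEN, another γ-secretase subunit, was 2.35-fold (2.05 to 2.69) higher in the A549 line, and its BEAS-2B ratio was 2.02 (1.58 to 2.59) at 1 ng/mL, called higher, and 1.63 (1.26 to 2.13) at 5 ng/mL, not called.

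Of the 5 genes that add sugars to the receptors, LFNG was called higher in both lines. It encodes Lunatic Fringe, which changes how receptors respond to Jagged and Delta ligands. Its normalized counts were 42.9, 164 and 294 in A549 and 17.8, 212 and 259 in BEAS-2B cells, and every treated library lay above both controls. At 5 ng/mL it was 6.86-fold (4.87 to 9.92) higher in A549 and 14.5-fold (8.74 to 25.9) higher in BEAS-2B cells. RFNG, or Radical Fringe, was 2.38-fold (1.99 to 2.87) higher in A549 cells and its BEAS-2B ratio was 0.902 (0.766 to 1.06).

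Of the 9 genes of the nuclear complex and its cofactors, 7 reached the minimum in each line at 5 ng/mL. In each line 1 of them was called higher and 0 lower. Of all genes, 16.1% were called higher in A549 and 7.33% in BEAS-2B cells, and 1 gene is too few to set against these shares. The coactivator MAML3 was 4.37-fold (3.57 to 5.39) higher in A549 cells and had 4, 6 and 12 counts in BEAS-2B cells. The coactivator MAML2 was 3.44-fold (2.71 to 4.4) higher in BEAS-2B cells, with a ratio of 3.7 (2.39 to 5.94) in A549 cells under the ND minimum. RBPJ itself had ratios of 1.53 (1.33 to 1.76) in A549 and 1.3 (1.19 to 1.43) in BEAS-2B cells and was not called.

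Of the 11 genes for ubiquitination, endocytosis and turnover, 6 reached the minimum in A549 cells at 5 ng/mL, with 0 called higher and 1 lower, and 7 in BEAS-2B cells, with 0 higher and 2 lower. NUMB, an inhibitor of Notch, had normalized counts of 339, 105 and 62.6 in A549 and of 253, 63 and 69.3 in BEAS-2B cells. It was 5.42-fold (4.16 to 7.16) lower in A549 and 3.65-fold (2.71 to 5) lower in BEAS-2B cells at 5 ng/mL. DTX3, of the Deltex family, was 4.22-fold (3.11 to 5.82) lower in BEAS-2B cells and 10.1-fold (5.21 to 21.9) lower in A549 cells, there under the ND minimum. Of the 5 Groucho/TLE genes, whose products are corepressors of HES proteins, TLE3 was called higher and TLE4 lower in A549 cells and none in BEAS-2B cells. TLE3 was 2.67-fold (2.22 to 3.23) higher and TLE4 2.07-fold (1.73 to 2.48) lower.

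The called pathway genes thus included LFNG and FURIN, higher in both lines, and NCSTN and NUMB, lower in both, whereas HES1 went down in A549 and up in BEAS-2B cells. NCSTN, PSENEN, RFNG and MAML3 overlap protein-coding genes on the opposite strand. The strand setting of the counting is not given in the sources used here, so reads of such pairs cannot be told apart. PSENEN also overlaps the protein-coding AD000671.1 on its own strand over 1842 bases. NUMB overlaps the noncoding AC005280.3 on its own strand over 91721 bases. Reads within these same-strand overlaps cannot be told apart by any strand setting. None of the 8 core genes overlaps a protein-coding gene, but NOTCH1 and JAG1 overlap antisense genes, and JAG2 overlaps the noncoding AL512356.1 on its own strand over 16631 bases, so its reads cannot be told apart from that gene's.

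**Figure D5:**
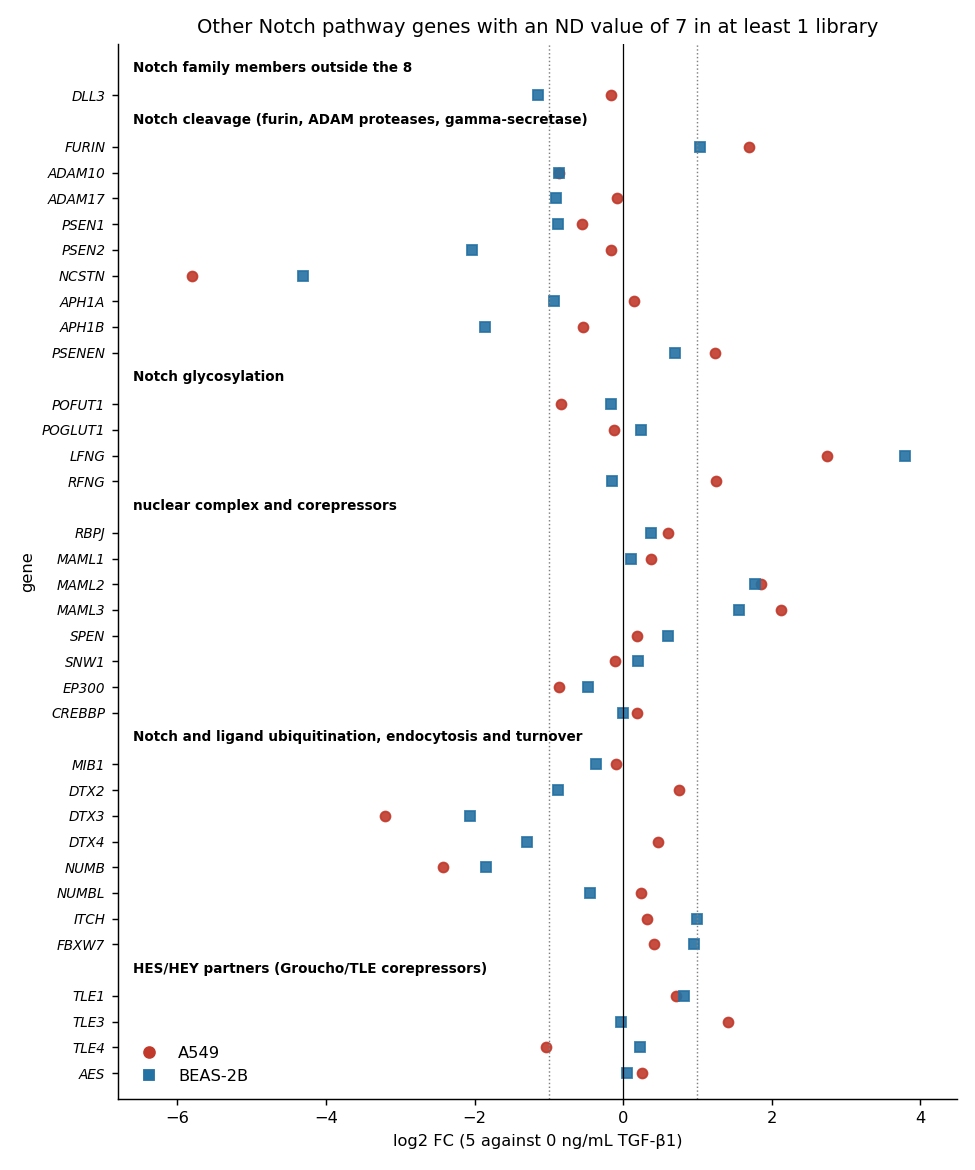
Log2 FC at 5 ng/mL against control (horizontal axis) in A549 (circles) and BEAS-2B (squares) cells for the pathway genes with an ND value of 7 in at least 1 library, by group; dotted lines mark 2-fold. NCSTN and NUMB lie left of -1 and LFNG right of 1 in both lines.

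The genes most alike to HES1 and JAG1 were ranked by the root mean square difference of their 4 log2 FCs over 8159 genes. RHOBTB1 was nearest to HES1, at 0.11, followed by ALG13 at 0.23, ANKRD1 at 0.26, BDKRB2 at 0.31 and MAST4 at 0.38. RHOBTB1 had 296, 167 and 114 counts in A549 and 34, 111 and 85 in BEAS-2B cells. ALG13 had 11, 36 and 25 counts and MAST4 22, 51 and 60 in BEAS-2B cells. RHOBTB1, ALG13 and MAST4 were under the ND minimum in every BEAS-2B library, and ANKRD1 in every A549 library. They therefore could not be called in both lines. Nearest to JAG1 were HMOX1 at 0.27, ITGA2 at 0.28, KSR1 at 0.33, LTBP2 at 0.33 and TFPI2 at 0.36. ITGA2 was under the ND minimum in every BEAS-2B library and KSR1 in every A549 library. None of these 10 genes is among the 50 pathway genes, and the likeness rests on 6 libraries with a shared control in each line.

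Secretory cell markers were lower in treated A549 cells, as HES1 was, and so were the listed epithelial markers other than KRT7. The summed counts of the 5 secretory markers went from 674 in the A549 control to 6 and 5 in the treated libraries. MUC5AC went from 399 to 6 and 0. In BEAS-2B cells the sums were 0, 5 and 1. At least 2 of the 5 markers, SCGB1A1 and SCGB3A2, were at 0 in every library. The 4 ciliated markers summed to 5, 5 and 8 counts in A549 and to 0, 0 and 1 in BEAS-2B cells. The part of cell state in the HES1 values was not tested. Of the 4 fibroblast markers, PDGFRB had 118 to 178 counts in BEAS-2B and 0 to 13 in A549 cells, whereas PDGFRA, DCN and LUM had 0 to 53 counts in A549 and 0 to 4 in BEAS-2B cells.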

How the data were processed

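Total RNA from 6 cultures was made into QuantSeq 3′ mRNA libraries, 1 for each of 2 cell lines at 0, 1 and 5 ng/mL TGF-β1. The authors deposited read counts per gene symbol, whole and not normalized, with 25737 entries in every library. The submitters' processing notes name hg19, Bowtie2 and bedtools, and the study names ExDEGA. Versions, annotation, filters and strand setting are not given in the sources used here, and 3′ counts do not scale with transcript length.

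Samples were grouped by their labels. Counts were scaled with TMM factors of edgeR 4.0.16 (R 4.3.3) over all entries of the 6 libraries and brought to the mean effective library size. Total counts ran from 4120624 to 7841350. FC used a pseudocount of 1, and calls needed an FC of 2 and an ND value of 7. Comparisons were made within a line (1 and 5 ng/mL against 0, and 5 against 1) and between the lines (controls, and 5 ng/mL). Ratios have exact 95% Clopper-Pearson intervals and differences between lines exact conditional intervals (scipy 1.17.1, Python 3.11.15), for counting error only. The calls were tested on simulated counts with counting error only and with known changes placed in well counted genes. That simulation had no spread between cultures and does not cover changes at low counts. Named genes were the 8 core genes, the called pathway genes at 5 ng/mL (at most 4 per group) and the 5 genes most alike to HES1 and to JAG1. DTX2, DLL3, DLL1, DLL4, HES2, HES5, HES6, HES7, HEY2, HEYL, NRARP, RBPJ and the genes of opposite calls or signs were named after their values were seen. Some listed genes are not reported here and were left out of the list counts. The members and lists were chosen with earlier results of these data known. Symbols with several entries were used row by row, except NOTCH4, whose 7 entries were summed. Overlaps and promoters came from GENCODE and RefSeq on GRCh38, another build than that of the counts. Alternatives covered scaling (DESeq2 1.42.0 size factors among them), filter, pseudocount, depth, ND minimum and FC limit.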

Additional observations from a re-analysis of the deposited data

Results flagged for a closer look

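In 4 of the 8 core genes and 10 of the 50 further pathway genes, both treated libraries of one cell line lay above their control and both of the other line below theirs, under the same contrast. This rule has no fold limit and no ND minimum, and the share of all genes that meet it was not computed. The counts are thus only a description of the listed genes. The values are the log2 FC in BEAS-2B minus that in A549 cells at 5 ng/mL. It was 4.05 for NOTCH3 and 2.99 for HES1, which had positive log2 FCs in BEAS-2B and negative ones in A549 cells. In all the others the signs were the other way round. There it was -2.27 for JAG2 and -1.11 for NOTCH1 among the core genes. In the wider pathway it was -1.76 for DTX4, -1.63 for DTX2, -1.44 for TLE3, -1.40 for RFNG and -1.08 for APH1A, and -0.68 for NUMBL, -0.66 for HES6 and -0.49 for TLE2. For HES7 and NOTCH4 it was -1.77 and -2.23, at 5 or fewer counts in each BEAS-2B library. The difference was not tested, as each condition has 1 library. Counting intervals of the difference left out 1 for the 4 core genes at both doses. Signs changed over the scalings and other settings for TLE3 in BEAS-2B cells (-0.16 to 0.03) and, in A549 cells, for NOTCH1 (-0.14 to 0.21) and APH1A (-0.05 to 0.18) at 5 ng/mL and for HES6 (-0.13 to 0.04) and NUMBL (-0.10 to 0.12) at 1 ng/mL.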

How the results depend on the processing

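Over 12 planned settings and 2 chosen after seeing the data, 774 of 776 log2 FC values of the core genes stayed within their counting interval and 0 called values reversed. The other 2 were JAG1 in A549 cells with total counts, 0.11 at 1 and 0.88 at 5 ng/mL. Settings that changed only the ND minimum, the ND value or the FC limit left every log2 FC as it was. Their values in this tally could not move or reverse, so it overstates how many settings bear on the log2 FC. HES1 ran from -1.91 to -1.67 in A549 and from 1.16 to 1.36 in BEAS-2B cells with 5 ng/mL and was called in 13 and 11 of the 14 settings. Signs without a call changed for HEY1 and NOTCH2 in A549 cells at 1 ng/mL (-0.01 to 0.15 and -0.04 to 0.12). The number of core genes called higher in A549 cells at 1 ng/mL, 2, became 1 in libraries thinned to the smallest total, 0 with ND 7 in both libraries, 1 at FC 3 and 0 with log2(CPM + 1) as ND. At 5 ng/mL, 2 became 1 with total counts, ND 7 in both, FC 3 or CPM. From 1 to 5 ng/mL in A549, 0 became 1 at FC 1.5. In BEAS-2B cells, 2 became 0 with ND 7 in both, 4 with no ND minimum and 0 with CPM at each dose, and 1 at FC 3 at 5 ng/mL. Between controls, 1 became 2 with total counts, 0 with ND 7 in both, 4 with no minimum and 0 with CPM. Of core genes called lower, 1 in A549 became 0 at FC 3 and 0 with CPM at 1 ng/mL, and 3 with no minimum and 0 with CPM at 5 ng/mL. With no minimum, 0 became 1 for A549 5 against 1 ng/mL and for BEAS-2B at 1 and at 5 ng/mL. Between controls, 2 became 0 with ND 7 in both, 4 with no minimum and 1 with CPM.

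For the 50 pathway genes, all settings were chosen after seeing the data. At 5 ng/mL in A549, 6 higher became 10 with no minimum, 3 at FC 3 and 2 with CPM, and 3 lower became 6 with total counts, 1 with ND 7 in both, 8 with no minimum, 6 at FC 1.5 and 0 with CPM. In BEAS-2B, 3 higher became 5 with upper quartile factors, 1 with ND 7 in both, 6 with no minimum, 8 at FC 1.5 and 0 with CPM, and 3 lower became 7 with total counts, 0 with ND 7 in both, 10 with no minimum, 8 at FC 1.5 and 0 with CPM. ND 7 in both libraries and CPM raise the level a gene must reach, and the cause of other moves was not tested. No paired analysis was possible because each group has 1 library. Depth limits HEY1, NOTCH1 and NOTCH3, and with 1 library per condition the spread between cultures is unknown.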
